A study of Mus musculus with 6 samples.

Results

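The genes described here are 40 genes of the cell division cycle and of DNA replication, taken by gene symbol from a table of FPKM values (fragments per transcript length and per library total) for 20594 genes in mouse colon. All 40 symbols stood in the table. They were divided by the phase in which each is known to act or peak: 17 S-phase genes, 21 mitotic genes, and the 2 cyclins Ccnd1 and Ccna2, which belong to neither. The study asked how colitis in a pregnant dam bears on the gut of its young. Every library came from colon of 3-week-old C57BL/6J offspring. The 3 control libraries came from young of dams given 0% dextran sulfate sodium (DSS), a sulfated polysaccharide that injures the colon lining. The 3 maternal DSS libraries came from young of dams given 1.5% DSS. The sample labels place the exposure from embryonic day 13 to 19, whereas the design text speaks of 5 days. The offspring themselves carried no allele and received no agent that the labels name. The titles open with the word for 3 offspring, which may count the animals in a library or in a group, and no dam, litter or sex is given. The p-values below therefore rest on the scatter of these 6 libraries alone, which may be partly technical.

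In the colon, cells divide in the crypts, where stem cells and their transit-amplifying daughters feed the epithelium above, while most cells of the surface, muscle and connective tissue are not cycling. Before DNA synthesis, origins are licensed by loading the MCM helicase with the help of CDC6 and CDT1. Cyclin E with its kinase and the E2F factors then drive cells into S phase, when PCNA clamps polymerases to DNA and ribonucleotide reductase supplies nucleotides. Transcription of mitotic genes follows, driven by the MuvB complex with B-MYB and FOXM1, and it peaks in G2 and mitosis. In a bulk library, fewer dividing cells and less RNA in each dividing cell cannot be told apart.

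The promoters of both classes are shown for the helicase genes Mcm5 and Mcm6 and for 4 mitotic genes, because the fold changes of the 2 classes lay mostly on opposite sides of 0 and each class has known promoter elements. Sequences are RefSeq promoters of build GRCm38.p6, printed 5′ to 3′ in the direction of the gene and ending before the annotated gene, so each lies between genes. Capitals mark an E2F element (TTTCCCGC, TTTCGCGC, TTTGCCGC or TTTGGCGC), a CHR element (TTTGAA or TTCGAA, the site of the MuvB complex) or a CCAAT box (CCAAT, the site of NF-Y), on either strand.
Mcm5, chr8:75109329-75109467, plus strand: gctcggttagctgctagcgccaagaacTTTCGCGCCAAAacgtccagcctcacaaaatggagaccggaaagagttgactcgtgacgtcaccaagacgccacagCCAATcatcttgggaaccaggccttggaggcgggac
Mcm6, chr1:128359706-128359885, minus strand: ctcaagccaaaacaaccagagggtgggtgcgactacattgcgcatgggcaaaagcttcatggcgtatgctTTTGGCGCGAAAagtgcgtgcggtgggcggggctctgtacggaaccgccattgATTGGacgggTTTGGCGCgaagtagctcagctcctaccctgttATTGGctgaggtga
Ccnb2, chr9:70421555-70421734, minus strand: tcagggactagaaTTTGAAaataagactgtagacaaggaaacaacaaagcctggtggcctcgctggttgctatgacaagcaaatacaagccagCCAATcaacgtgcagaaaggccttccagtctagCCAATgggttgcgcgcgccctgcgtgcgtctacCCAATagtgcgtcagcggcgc
Cdk1, chr10:69352913-69353092, minus strand: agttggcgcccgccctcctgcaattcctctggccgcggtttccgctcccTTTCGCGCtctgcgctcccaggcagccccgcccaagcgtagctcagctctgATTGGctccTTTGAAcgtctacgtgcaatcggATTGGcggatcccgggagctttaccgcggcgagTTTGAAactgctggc
Cdc20, chr4:118437344-118437523, minus strand: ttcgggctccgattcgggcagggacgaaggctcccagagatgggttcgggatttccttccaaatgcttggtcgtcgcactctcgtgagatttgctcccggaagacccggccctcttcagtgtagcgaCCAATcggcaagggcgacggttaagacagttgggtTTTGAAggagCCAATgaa
Mki67, chr7:135716451-135716559, minus strand: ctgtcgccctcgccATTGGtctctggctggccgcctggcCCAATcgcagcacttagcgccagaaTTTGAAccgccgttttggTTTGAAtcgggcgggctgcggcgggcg

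In these stretches Mcm6 held 3 E2F elements and Mcm5 held 2, with a pair on opposite strands overlapping in each gene. Ccnb2, the gene of cyclin B2, held 3 CCAAT boxes whose first bases lay 33 bases apart, and Cdk1, which encodes the kinase that cyclin B activates, held 2 CHR elements and 1 E2F element. The promoter table held 31 of the 40 genes, 14 of S phase and 17 of mitosis. In the 250 bases before the start, an E2F element stood in 4 of 14 S-phase promoters (28.6%) and 1 of 17 mitotic promoters (5.88%), against 3.29% of the 10105 tested genes with a promoter. Unlike the printed stretches, some of these windows reached into the annotated gene, and those of Cdc6, E2f1 and Aurka lay wholly inside it. The E2F elements counted for Cdc6 and Mcm7 fell within the annotated gene. A CHR element stood in 2 S-phase promoters (14.3%) and 8 mitotic promoters (47.1%), against 12.6%. The printed genes were thus not a cross-section of their classes: both S-phase ones held an E2F element and all 4 mitotic ones a CHR element. A CCAAT box stood in 8 S-phase promoters (57.1%) and 16 mitotic promoters (94.1%), against 36.6%. With the 50 bases after the start added, CHR elements stood in 14 of the 17 mitotic promoters (82.4%, against 14.2%) and E2F elements in 6 of the 14 S-phase promoters (42.9%, against 3.96%). A match of letters is a description of the window and not evidence that a factor binds there.

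**Figure D1:**
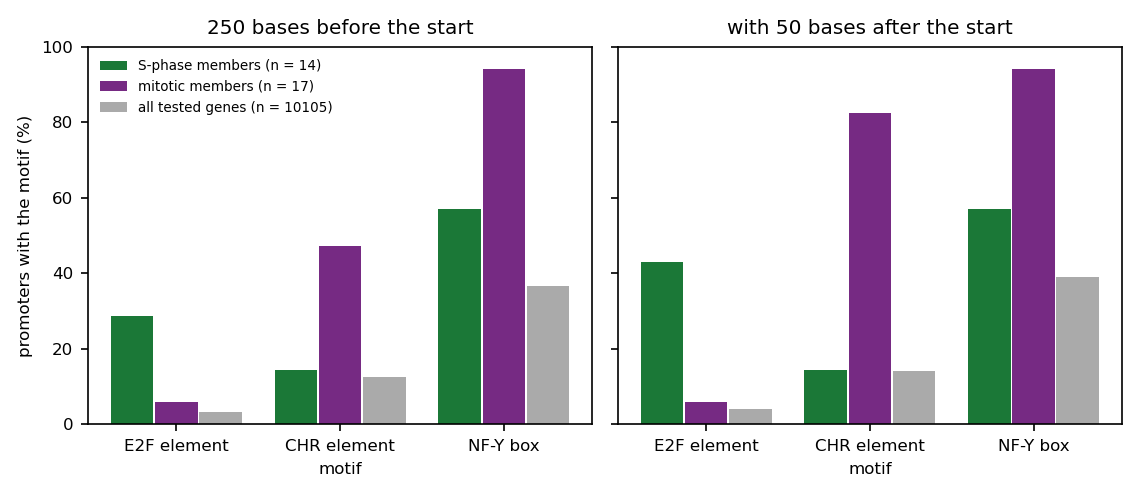
Share of promoters (%) with an E2F element, a CHR element or an NF-Y box (the CCAAT box) among S-phase members, mitotic members and all tested genes with a promoter, in the 250 bases before the start (left) and with 50 bases after it added (right). The CHR bar of the mitotic members stands at 47.1% on the left and 82.4% on the right, and that of the S-phase members at 14.3% in both.

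The depth of the libraries is unknown, since the deposited values are FPKM, and between 13249 and 13739 genes reached an FPKM of 1 in each. Of the 40 genes 39 were among the 13594 tested genes (those that reached an FPKM of 1 in 3 or more libraries), and Cdc6 was not. In limma with Benjamini-Hochberg adjustment 0 of 13594 genes had an adjusted p under 0.05 (0.0%), and 1064 had an unadjusted p under 0.05. Colon epithelium markers were present in every library, with a summed FPKM over 13 genes of 9460 to 10800 in controls and 11000 to 12700 in maternal DSS libraries. Of these sums, Car1 alone gave 5630, 5090 and 4530 FPKM in controls and 7010, 5450 and 7280 in maternal DSS libraries, with groups that overlapped. The mean was higher in the maternal DSS group for 10 of the 13 genes. Markers of the small intestine and Paneth cells stood apart in maternal DSS 2 and 3. Their summed FPKM over 9 of 12 listed genes was 162 and 180 there, against 15.6 in maternal DSS 1 and 15.0 to 36.3 in controls. Markers of B and plasma cells summed to 281 and 413 FPKM in the same libraries, 61.2 in maternal DSS 1 and 41.5 to 56.6 in controls.

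The S-phase genes and the mitotic genes lay furthest apart in maternal DSS 2. Relative to the control mean, the gap between their mean log2(FPKM + 1) was 0.44 there and 0.21 in maternal DSS 3. It was -0.01 in maternal DSS 1 and reached 0.12 in control 3. In maternal DSS 3 each class mean by itself lay within the range of the controls. On average over the groups, genes that license origins and copy DNA were slightly higher in maternal DSS offspring, and genes of mitosis were slightly lower. Of 16 tested S-phase genes 12 had a positive log2 fold change, with a median of 0.13, and of 21 mitotic genes 20 had a negative one, with a median of -0.14. Over all tested genes 40.3% were positive and 59.7% negative, with a median of -0.04. A positive log2 fold change stands for a higher mean of log2(FPKM + 1) in the maternal DSS libraries, and this scale shrinks the differences of scarce genes. No member passed the adjusted threshold (smallest adjusted p = 0.62 in limma), and 3 had an unadjusted p under 0.05, a share near the 7.83% of all tested genes. Of these, Mcm7 and Rrm2 were higher, as were 2.42% of all tested genes, and Ccnd1 was lower, as were 5.41%. The groups did not overlap in 6 of 39 members (15.4%), against 14.1% of all tested genes. All 5 of these that were higher in maternal DSS libraries were S-phase genes (Mcm4, Mcm5, Mcm7, Pcna and Rrm2), against 4.92% of all tested genes in that direction. None of the 21 mitotic genes had groups that did not overlap.

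**Figure D2:**
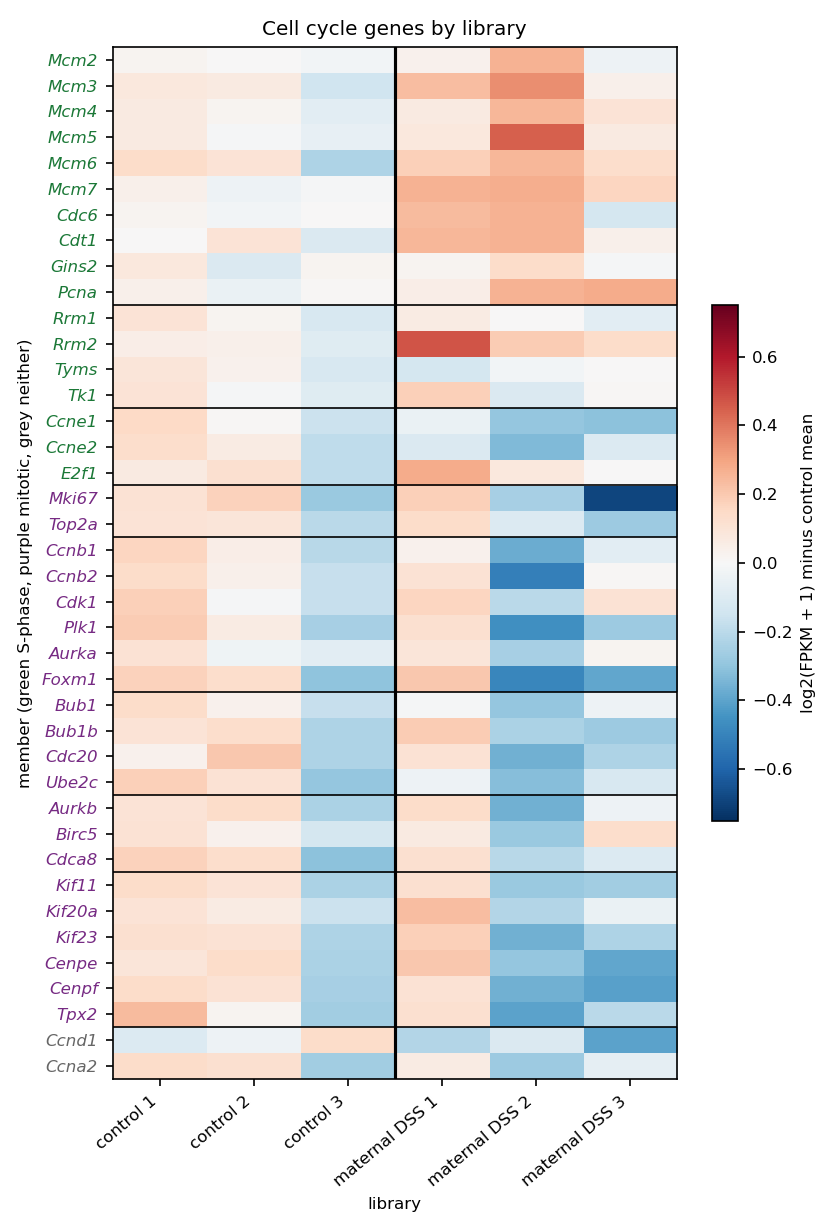
Difference of log2(FPKM + 1) from the control mean for the 40 members (rows, by role) in the 6 libraries (columns), red higher and blue lower. The mitotic members (purple names) are blue in control 3 and maternal DSS 2, mostly blue in maternal DSS 3 and mostly red in the other libraries, while Mcm2 to Mcm7 are red in maternal DSS 2.

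The licensing and fork genes shared one direction. All 9 that were tested had positive fold changes, from 0.05 to 0.23, and 4 of the 9 had groups that did not overlap, against 4.92% of all tested genes in this direction. Mcm2 to Mcm7 encode the 6 subunits of the replicative helicase. All 6 had their highest value in maternal DSS 2, as did Cdt1 and Gins2, whereas maternal DSS 2 was the highest library for 9.2% of all tested genes. After scaling each library to a common total (TPM), 5 of the 6 Mcm genes were positive, and without maternal DSS 2 also 5 of 6. With that scaling the log2 fold change was 0.13 for Mcm7 (unadjusted p = 0.285 in limma), 0.10 for Mcm5, 0.09 for Mcm6, 0.08 for Pcna and 0.04 for Mcm4. Each was at least 1.5 times smaller than the value given below. The median over all genes tested with that scaling was also lower, -0.139 in place of -0.037, so the shift was not particular to these genes.

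Mcm7 (chromosome 5, 138164583 to 138172111) had 15.0, 14.1 and 14.4 FPKM in controls 1 to 3, then 17.5, 17.6 and 16.3 FPKM in maternal DSS 1 to 3, the order kept throughout. Every maternal DSS library was above every control. The log2 fold change was 0.23, with an SE of 0.07 and an adjusted p of 0.62 in limma, and it lay between 0.21 and 0.26 when any 1 library was left out. Mcm5 had 9.19, 8.69 and 8.34 FPKM across controls and 9.30, 12.3 and 9.22 in maternal DSS libraries. Its groups were apart only by the step from 9.19 to 9.22, and maternal DSS 2 was well above the rest. Its log2 fold change of 0.20 (SE 0.12) was 0.08 without maternal DSS 2. Mcm4 had 7, 6.73 and 6.23 FPKM against 7.01, 8.10 and 7.17, again apart by a small step (log2 fold change 0.14, SE 0.09; 0.08 without maternal DSS 2). Mcm6, the second most abundant helicase gene here, had 16.0, 15.6 and 12.2 FPKM across controls and 16.6, 17.5 and 15.9 in maternal DSS libraries. Its groups overlapped, control 3 was the low library, and the log2 fold change of 0.19 (SE 0.11) was 0.07 without control 3. Mcm3 (0.21, SE 0.11) and Mcm2 (0.08, SE 0.10) also had positive fold changes, with groups that overlapped.

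Pcna, the sliding clamp of DNA polymerases (chromosome 2, 132249286 to 132253180), was the most abundant of the 40 genes. It had 63.8, 60.1 and 62.3 FPKM across controls and 64.1, 74.4 and 75.4 in maternal DSS libraries. Maternal DSS 1 lay just above the highest control and the other two clearly above it (log2 fold change 0.19, SE 0.08, unadjusted p = 0.056 and adjusted p = 0.62 in limma). A pseudogene copy, Pcna-ps2, has a row of its own, and the deposited values do not show how shared reads were divided. The fold change was 0.18 (SE 0.10) for Cdt1, which loads the helicase, and 0.05 (SE 0.09) for Gins2, a subunit of the active helicase. Cdc6, the other loading factor, had the lowest mean of the 40 genes and was not tested. Its FPKM was 0.926, 0.870 and 0.904 across controls and 1.24, 1.27 and 0.731 in maternal DSS libraries, so that group held both its highest and its lowest value.

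The nucleotide supply genes did not share a direction. Rrm2, the regulatory subunit of ribonucleotide reductase (chromosome 12, 24708254 to 24714146), had 6.61, 6.58 and 5.94 FPKM across controls and 9.20, 7.43 and 7.12 in maternal DSS libraries. The groups did not overlap, maternal DSS 1 was highest, and the log2 fold change of 0.27 (SE 0.11, adjusted p = 0.62 in limma) was the highest of the 39 members; without maternal DSS 1 it was 0.17, and after TPM scaling 0.18 (unadjusted p = 0.308 in limma). Its catalytic partner Rrm1 had 13.4, 12.6 and 11.4 against 13, 12.4 and 11.7 FPKM (log2 fold change -0.01, SE 0.09). Tk1, the thymidine kinase of the salvage pathway, had 14.5, 13.4 and 12.7 against 15.5, 12.4 and 13.7 FPKM (log2 fold change 0.03, SE 0.10). The groups of both overlapped, and the sign of each depended on the setting: Rrm1 was positive after median-ratio scaling (0.04), and Tk1 was negative after TPM scaling (-0.08). Tyms, thymidylate synthase, had a log2 fold change of -0.05 (SE 0.09).

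The G1/S controllers were scarce, with mean levels between 1.63 and 2.15 FPKM over the libraries. E2f1, the factor that activates replication genes, had 1.63, 1.73 and 1.2 FPKM across controls and 2.05, 1.65 and 1.50 in maternal DSS libraries, with groups that overlapped (log2 fold change 0.12, SE 0.13; 0.02 without control 3). The cyclin E genes lay in the other direction from the helicase genes: the fold change was -0.21 (SE 0.12) for Ccne1 and -0.18 (SE 0.12) for Ccne2. Both were highest in control 1.

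**Figure D3:**
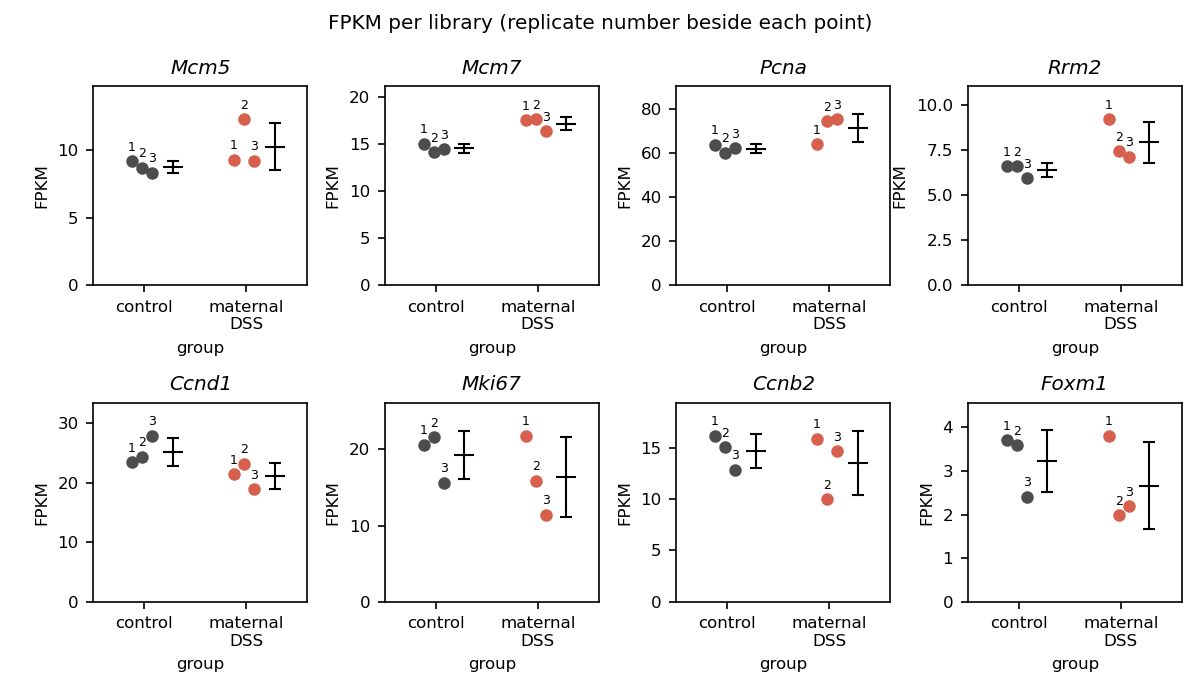
FPKM of 8 members in each library (points, with the replicate number), with the mean and SD of each group (n = 3, bars beside the points). Mcm7 and Rrm2 lie above all controls in each maternal DSS library, while Mki67, Ccnb2 and Foxm1 are low in control 3 and in some maternal DSS libraries.

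The mitotic genes followed single libraries more than the groups. Each of the 21 was lower in control 3 than in control 1, and each was lower in maternal DSS 2 than in maternal DSS 1. Over all tested genes 62.5% were lower in control 3 than in control 1 and 61.3% were lower in maternal DSS 2 than in maternal DSS 1. Maternal DSS 2 was the lowest library for 15 of the 21 (71.4%), against 19.9% of all tested genes, and control 1 or maternal DSS 1 the highest for 11 and 8 of them. Maternal DSS 1 was above control 3 in all 21. Without maternal DSS 2 the number of negative fold changes was 14 of 21 and the median -0.04, and without maternal DSS 2 and 3 it was 2 of 21 and 0.12.

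Mki67, which encodes the proliferation marker Ki-67 (chromosome 7, 135689784 to 135716450), had 20.6, 21.6 and 15.6 FPKM across controls and 21.8, 15.9 and 11.4 in maternal DSS libraries. The highest and the lowest library were both of the maternal DSS group, and the log2 fold change of -0.25 (SE 0.22, adjusted p = 0.70 in limma), the lowest of the 39, was -0.04 without maternal DSS 3 and -0.47 without maternal DSS 1. Top2a, the topoisomerase that untangles sister chromatids, had 22.7, 22.5 and 18.3 against 23.3, 19.6 and 17.3 FPKM (log2 fold change -0.08, SE 0.13; -0.18 to 0.02 when any 1 library was left out), also with maternal DSS 1 highest and maternal DSS 3 lowest.

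Among genes of mitotic entry, Foxm1, the transcription factor of the G2/M programme, had 3.70, 3.59 and 2.41 FPKM across controls and 3.81, 1.99 and 2.19 in maternal DSS libraries. Control 3 lay with maternal DSS 2 and 3, and the others were higher (log2 fold change -0.23, SE 0.21; -0.10 without maternal DSS 2). Ccnb2 had 16.2, 15.1 and 12.9 against 15.9, 10 and 14.7 FPKM (log2 fold change -0.13, SE 0.17). Here maternal DSS 2 alone was far below, and without it the log2 fold change was 0.06. The fold change was -0.20 (SE 0.17) for Plk1, a kinase of spindle assembly, -0.14 (SE 0.14) for Ccnb1, cyclin B1, and -0.05 (SE 0.11) for Aurka, the spindle pole kinase. Cdk1 had the 1 positive value of the mitotic list (0.02, SE 0.13).

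The checkpoint and anaphase genes were all negative, from -0.16 to -0.11. Ube2c, the ubiquitin-conjugating enzyme of the anaphase-promoting complex and the most abundant mitotic member, had 26.1, 25.0 and 18.7 FPKM across controls and 22.4, 18.2 and 21.0 in maternal DSS libraries (log2 fold change -0.16, SE 0.14; -0.07 without control 1 and -0.31 without control 3). Cdc20, the activator of that complex, had 12.0, 13.6 and 9.84 against 12.7, 8.91 and 9.83 FPKM (log2 fold change -0.16, SE 0.15; -0.06 without control 2 or without maternal DSS 2). The groups of both overlapped, with control 3 and maternal DSS 2 at the low end, joined by maternal DSS 3 for Cdc20. The checkpoint kinase genes Bub1 and Bub1b both had a log2 fold change of -0.11.

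The chromosomal passenger genes had the smallest differences of the mitotic groups, with a median of -0.06. Birc5, which encodes survivin, had 15.6, 14.7 and 13 FPKM across controls and 15.1, 11.7 and 15.8 in maternal DSS libraries (log2 fold change -0.03, SE 0.13), so maternal DSS 2 was lowest and maternal DSS 3 highest. Aurkb and Cdca8, its partners in the complex, had -0.09 (SE 0.16) and -0.06 (SE 0.15). The spindle, kinetochore and cytokinesis genes ranged from -0.22 for Cenpf, a large kinetochore protein, to -0.01 for Kif20a, a kinesin of cytokinesis. Between them lay the kinetochore motor Cenpe (-0.16, SE 0.18), the spindle assembly factor Tpx2 (-0.16, SE 0.17) and the kinesins Kif11 (-0.14, SE 0.15) and Kif23 (-0.14, SE 0.16).

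**Figure D4:**
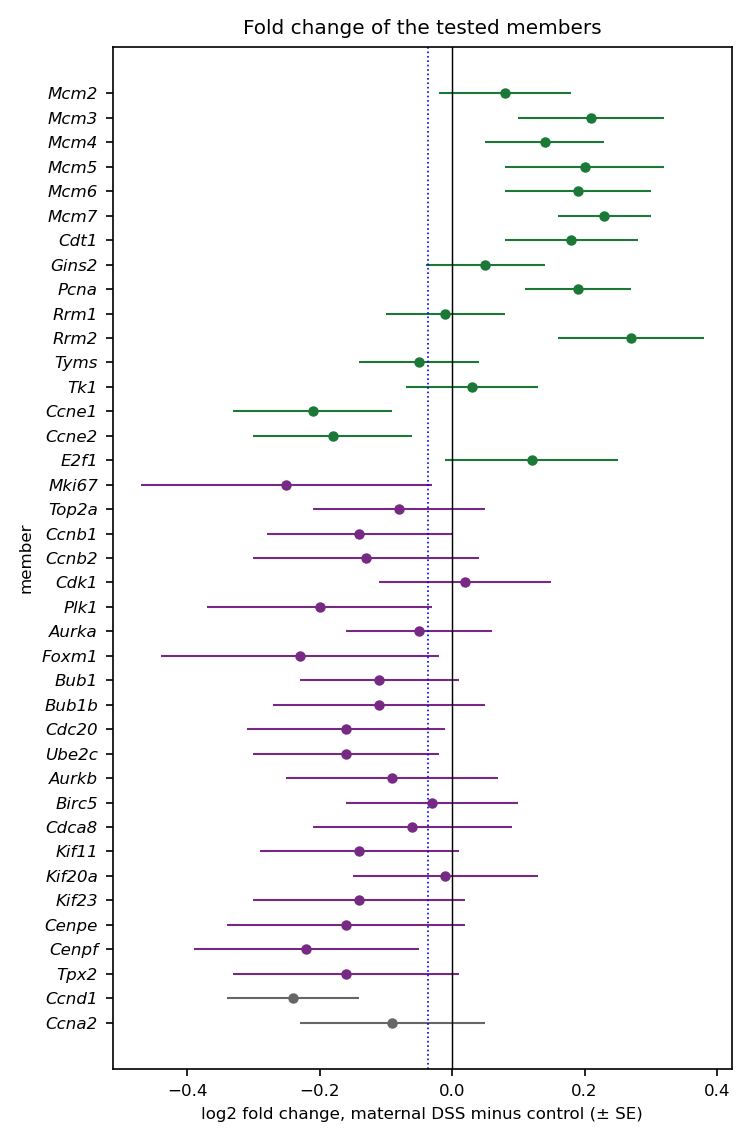
Log2 fold change (maternal DSS minus control, points) with its SE (bars) for the 39 tested members, S-phase green, mitotic purple, Ccnd1 and Ccna2 grey, with the median of all tested genes as a dotted line at -0.04. The replication genes from Mcm2 to Pcna lie right of 0, and all mitotic genes but Cdk1 lie left of it.

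Of the cyclins that belong to neither class, Ccnd1 (cyclin D1, which carries growth signals into G1; chromosome 7, 144929931 to 144939831) was lower in every maternal DSS library than in every control. It had 23.4, 24.4 and 27.9 FPKM across controls and 21.4, 23.2 and 18.9 in maternal DSS libraries (log2 fold change -0.24 with an SE of 0.10, adjusted p = 0.62 in limma). Without control 3 or without maternal DSS 3 it was -0.17. The groups were apart by the step from 23.4 to 23.2 FPKM, and 9.14% of all tested genes had groups that did not overlap in this direction. Ccna2 (cyclin A2, active in S phase and G2) had 18.3, 18.0 and 13.6 against 17.3, 13.5 and 15.7 FPKM, with groups that overlapped and control 3 and maternal DSS 2 lowest, as in the mitotic genes (log2 fold change -0.09, SE 0.14; -0.22 without control 3 and 0.00 without maternal DSS 2).

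The difference between the classes was followed library by library as the mean of log2(FPKM + 1) over each list, less the control mean. The S-phase mean was 0.08, 0.02 and -0.10 in controls 1 to 3, then 0.12, 0.13 and 0.03 in maternal DSS 1 to 3. The mitotic mean was 0.13, 0.09 and -0.22 across controls and 0.12, -0.32 and -0.18 in maternal DSS libraries. In maternal DSS 1 both classes were thus equally high, in maternal DSS 2 they lay furthest apart, and in control 3 both were low. The S-phase mean less the mitotic mean was -0.06, -0.06 and 0.12 across controls and -0.01, 0.44 and 0.21 in maternal DSS libraries, a difference between groups of 0.21 on the log2 scale. The groups overlapped, because maternal DSS 1 lay below control 3. The difference was 0.10 without maternal DSS 2, 0.32 without maternal DSS 1, and -0.01 with maternal DSS 1 as the lone library of its group. Since the genes were chosen with earlier results known, no p is given for it.

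**Figure D5:**
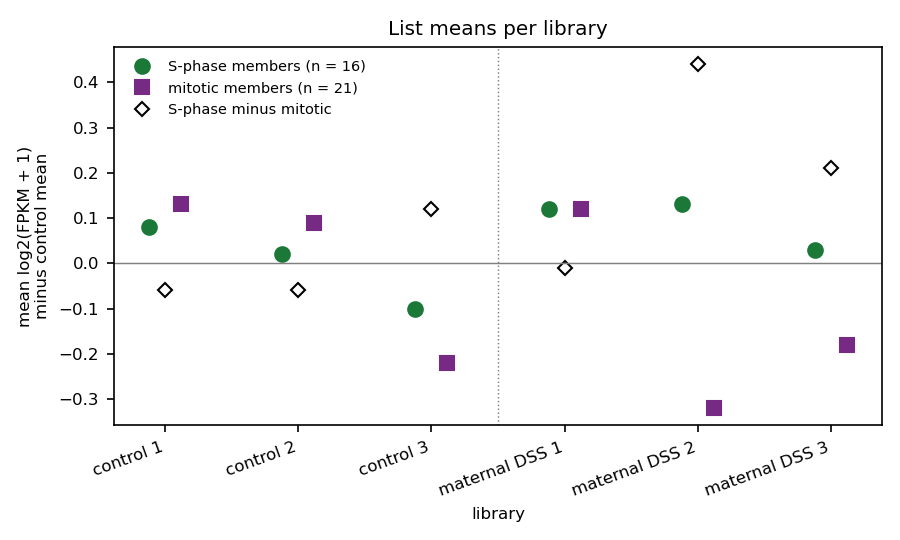
Mean of log2(FPKM + 1) less the control mean for the 16 tested S-phase members (circles), the 21 mitotic members (squares) and the difference between the lists (diamonds) in each library. The diamonds stand at 0.44 and 0.21 in maternal DSS 2 and 3, and at -0.01 in maternal DSS 1, below the 0.12 of control 3.

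Other measures moved with this difference, and their part in it was not tested. The libraries with the widest gap, maternal DSS 2 and 3, were those with high small-intestinal and plasma cell markers. The list mean of the small-intestinal and Paneth cell markers was 2.08 and 2.35 there and -0.34 in maternal DSS 1, and all 9 listed in the table had a higher mean in the maternal DSS group. That of the B and plasma cell markers was 1.47 and 1.63 there and -0.04 in maternal DSS 1, with 5 of 8 higher. For markers of T cells, NK cells and innate lymphoid cells the list mean was 0.59 and 0.43 there, 0.03 in maternal DSS 1 and -0.08, -0.20 and 0.28 in the controls, with 7 of 8 higher and a summed level of 4.37 to 7.03 FPKM in controls against 5.54 to 9.98. The macrophage list (6 of 8 higher) had -0.26, -0.03 and 0.29 in the controls, then -0.28, 0.26 and 0.47, and its summed level was 131 to 220 FPKM in controls against 127 to 283. The adipocyte list (3 of 5 higher) had -0.34, -0.15 and 0.49, then -0.24, 0.49 and 0.39, and its summed level was 74.2 to 127 FPKM in controls against 95.7 to 126. Both were thus high in control 3 and maternal DSS 2 and 3, the libraries in which the mitotic mean was low. Crypt base and progenitor markers summed to 50.8 to 54.5 FPKM across controls and 46.4 to 49.0 in maternal DSS libraries, with 1 of the 9 higher, Olfm4. Olfm4 had 0.146, 0.022 and 0.0959 FPKM across controls and 0.557, 3.37 and 3.69 in maternal DSS libraries. It was thus high in the same libraries as the small-intestinal markers, and it was too scarce to be tested. Over the 8 tested genes, without Olfm4, the list mean was -0.09 in maternal DSS 1 and -0.26 in each of maternal DSS 2 and 3. Smooth muscle markers, from tissue with few dividing cells, summed to 2870 to 3030 FPKM across controls and 2390 to 3080 across maternal DSS libraries, lowest in maternal DSS 2.

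Transcript length moved with the mitotic genes in maternal DSS 3. In that library the 4 mitotic genes with transcripts of 5000 nt or more (Mki67, Top2a, Cenpe and Cenpf) had a median difference from the control mean of -0.40 on the log2(FPKM + 1) scale, and the 17 shorter ones -0.10. In maternal DSS 2 the medians were -0.27 and -0.32. Across the 21 genes the difference in maternal DSS 3 had a Pearson correlation of -0.65 with log2 length, and across all 13204 tested genes with a length one of -0.49. Genes of 1 library share its depth and handling and are not independent replicates. With the length trend removed from each library, Mki67 had a log2 fold change of -0.06, 16 of 21 mitotic genes were negative with a median of -0.07, and the difference between the classes was 0.19. Without subtracting the control mean, the S-phase mean less the mitotic mean was then 0.39 in maternal DSS 2 and 0.12 in maternal DSS 3. It was -0.04 in maternal DSS 1 and -0.09, -0.09 and 0.08 in controls 1 to 3. Before the trend was removed, the same values without subtraction were 0.39 in maternal DSS 2 and 0.16 in maternal DSS 3. They were -0.05 in maternal DSS 1 and -0.10, -0.11 and 0.07 in controls 1 to 3.

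The remaining genes of the pathway were taken from lists that hold none of the 40. Of 46 tested other S-phase genes 30 were positive (65.2%, against 40.3% of all tested genes), with a median of 0.04. Of these 46 genes 5 had an unadjusted p under 0.05, all higher, against 2.42% of all tested genes in that direction. The groups did not overlap in 9 of the 46, against 14.1% of all tested genes. They were 7 higher and 2 lower, the lower ones being Slbp, which binds histone mRNA (log2 fold change -0.12, SE 0.07), and Casp8ap2 (-0.21, SE 0.10), both named after their values were seen. Tipin, which stabilises stalled forks, had 6.34, 5.95 and 6.03 FPKM across controls and 8.09, 8.47 and 7.92 in maternal DSS libraries. Every maternal DSS library was well above every control, and the log2 fold change of 0.37 (SE 0.07, unadjusted p = 0.0016 and adjusted p = 0.61 in limma) stayed between 0.34 and 0.39 when any 1 library was left out. Rpa2, a subunit of the single-strand binding complex, had 5.35, 4.32 and 4.6 against 5.85, 5.90 and 6.06 FPKM (log2 fold change 0.27, SE 0.09). Fen1, the flap endonuclease of lagging strand synthesis, had 6.06, 5.61 and 5.54 against 6.78, 7.24 and 6.42 FPKM (log2 fold change 0.21, SE 0.08). In both genes the groups did not overlap. Chaf1b, a subunit of the histone chaperone CAF-1, had 3.86, 3.44 and 2.72 against 4.56, 4.07 and 4.51 FPKM, also with groups apart (log2 fold change 0.32, SE 0.12; 0.21 without control 3). Dtl, which directs CDT1 to degradation, had 2.19, 1.85 and 1.66 against 2.98, 2.64 and 2.1 FPKM, with maternal DSS 3 within the controls (log2 fold change 0.30, SE 0.13).

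Of 53 other G2 and mitosis genes 40 were negative (75.5%), with a median of -0.07, against 59.7% and -0.04 over all tested genes. None had an unadjusted p under 0.05 in limma or groups that did not overlap, against 7.83% and 14.1% of all tested genes. The list mean of these genes was 0.10, 0.07 and -0.17 across controls and 0.13, -0.23 and -0.13 in maternal DSS libraries, with the same libraries low as for the 21 mitotic members. The other S-phase list less this list gave -0.02, -0.04 and 0.07 across controls and 0.00, 0.27 and 0.13 in maternal DSS libraries. Maternal DSS 2 and 3 lay above all controls and maternal DSS 1 within them.

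The G1 cyclins, kinases and E2F family were mostly lower, with 13 of 15 tested genes negative (86.7%, median -0.13), against 59.7% of all tested genes. Ccnd3, cyclin D3, had 20.6, 20.8 and 23.2 FPKM across controls and 18.4, 18.4 and 19.7 in maternal DSS libraries, with groups apart (log2 fold change -0.18, SE 0.08, unadjusted p = 0.049 and adjusted p = 0.62 in limma). Ccnd2, cyclin D2, had 38.9, 41.7 and 37.1 against 33.7, 39.3 and 32.6 FPKM (log2 fold change -0.16, SE 0.09; -0.10 without maternal DSS 3), so maternal DSS 2 lay within the controls. Cdk4, the kinase of the D cyclins, had 47.4, 43.3 and 46.9 against 46.1, 44.4 and 47.9 FPKM (log2 fold change 0.01, SE 0.07), with groups interleaved. Myc, a growth-promoting transcription factor, had 7.80, 7.39 and 7.90 against 7.75, 5.98 and 6.75 FPKM (log2 fold change -0.16, SE 0.10; -0.24 without maternal DSS 1 and -0.08 without maternal DSS 2), with maternal DSS 1 among the controls. Of 21 tested genes in a list of cell cycle brakes and their regulators 15 were negative (71.4%, median -0.03), against 59.7% of all tested genes (median -0.04). Not all of them only restrain the cycle, since the list holds Mdm2 and the MuvB genes Lin9, Lin37, Lin52 and Lin54. Fzr1, which encodes the CDH1 activator of the anaphase-promoting complex that holds cells in G1, had 16.8, 16.1 and 14.9 against 14.1, 11.5 and 13.2 FPKM, with groups apart (log2 fold change -0.29, SE 0.09, unadjusted p = 0.018 and adjusted p = 0.62 in limma). The p53 target Cdkn1a, which encodes the kinase inhibitor p21, had 91.7, 81.3 and 74.6 against 95.5, 86.5 and 86.1 FPKM, with groups that overlapped (log2 fold change 0.12, SE 0.10; 0.05 without control 3 and 0.19 without control 1).

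By level, the 40 genes spanned means from 0.99 FPKM for Cdc6 to 66.7 for Pcna, which stood apart from the rest. Ccnd1, Ube2c, Top2a, Mki67 and Ccna2 came next, and Bub1, Ccne2, Ccne1, E2f1 and Cdc6 closed the order. The median ratio of the highest to the lowest library was 1.51 for the mitotic genes (from 1.35 for Aurka to 1.91 for Foxm1) and 1.36 for the S-phase genes (from 1.18 for Rrm1 to 1.74 for Cdc6), against 1.37 over all tested genes.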

How the data were processed

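Colon RNA was made into 6 libraries with a stranded mRNA kit, as the labels' protocols state. The deposited values are FPKM per gene and library. Build mm10, StringTie 2.1.3b, HISAT2 2.1.0, Trimmomatic 0.38, FastQC 0.11.7 and DESeq2 are named, without their roles, per the submitters' processing notes. Which gene annotation the authors used is not stated in those notes. Low values did not fall on steps of whole reads (840 genes compared between 2 libraries, at most 0.476% at one ratio), so depth is unknown and counting error cannot be given.

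The design allowed for counts or FPKM, and the FPKM test was used. Values were taken as log2(FPKM + 1) for the 13594 genes that reached 1 FPKM in 3 or more libraries and fitted for group with limma 3.58.1 in R 4.3.3 (mean-variance trend, two-sided, Benjamini-Hochberg over all tested genes, threshold 0.05). The fit was tested on simulated data with independent noise in each gene. These data held no shift shared by the genes of a library, so the test does not cover such shifts. Lists are described by counts and medians, without a list test. Lengths were the longest GENCODE M21 transcript, found for 97.1% of tested genes. Coordinates are RefSeq GRCm38.p6, the assembly that mm10 names. Promoter motifs used the gene's start listed first in the RefSeq table.

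The members and lists were chosen with earlier results of these data known. Values in every library are given for the 6 most abundant tested genes of each class, for Mki67, Top2a, Pcna, Ccnd1, Ccna2, E2f1 and Foxm1, for members with an unadjusted p under 0.05 or groups that did not overlap, and for the members with the highest and lowest fold change. From each other list, up to 6 genes with an unadjusted p under 0.05 are named, plus Cdkn1a, Myc, Ccnd2 and Cdk4. Cdc6 was added after its values were seen. The labels do not say whether equal replicate numbers pair the libraries. Deviations from the group mean correlated at 0.28, -0.38 and 0.40 for numbers 1, 2 and 3. With 3 libraries in a group these deviations are tied to each other, so the correlations cannot settle it. Alternatives were other pseudocounts, filters and scalings, removal of a length trend, array weights, a replicate block and leaving out libraries.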

Additional observations from a re-analysis of the deposited data

How the results depend on the processing

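No member passed the adjusted threshold under any setting except limma with array weights, in which maternal DSS 2 weighed 5.47 and maternal DSS 1 only 0.249. That setting called 28 members and 4933 genes in all (6784 with an unadjusted p under 0.05), with medians of -0.28 over the members and -0.37 over the mitotic genes and a difference between the classes of 0.45. Genes with an unadjusted p under 0.05 numbered 677 at a filter of 5 FPKM. They numbered 1678 with the replicate block, under which no gene passed the adjusted threshold. Whether the replicate numbers pair the libraries is not stated in the labels. Leaving out 1 library gave 0 to 12 called genes, 401 to 3368 genes with an unadjusted p under 0.05, 11 to 13 positive S-phase genes, 14 to 21 negative mitotic genes, medians of -0.17 to -0.01 over the members, 0.07 to 0.16 over the S-phase genes and -0.25 to -0.04 over the mitotic genes, and a difference between the classes of 0.10 to 0.32. With maternal DSS 1 as the lone library of its group, a choice made after seeing the data that assumes it varies like the others, 2 mitotic genes were negative, with medians of 0.12 over the members (0.117) and the mitotic genes (0.124) and a difference of -0.006. In that fit the sign turned for Mki67 (0.18), Top2a (0.14), Ccnb2 (0.11), Foxm1 (0.20), Cdc20 (0.11), Birc5 (0.07), Ccna2 (0.06), Myc (0.01) and Rrm1 (0.06). TPM scaling, under which the filter left 15643 genes and all 40 members in place of 13594 and 39, gave a median over the tested genes of -0.139 in place of -0.037, with 10 of 17 S-phase genes positive (median 0.07), 21 negative mitotic genes and a difference of 0.235, and turned Tk1 (-0.08) and Cdk4 (-0.10). The share of positive genes among those with an unadjusted p under 0.05 was 30.9%; it was 41.5% with the length trend removed, 50% with median-ratio scaling and 10.5% with TPM scaling. Median-ratio scaling turned Rrm1 (0.04) and Birc5 (0.02). Removal of the length trend turned Rrm1 (0.10), Top2a (0.03), Birc5 (0.01) and Cdk4 (-0.01), and array weights turned Tk1 (-0.11) and Cdk4 (-0.02). Leaving out 1 library also turned signs, within -0.07 to 0.04 for Rrm1, -0.05 to 0.10 for Tk1, -0.18 to 0.02 for Top2a, -0.25 to 0.06 for Ccnb2, -0.11 to 0.10 for Birc5 and -0.03 to 0.04 for Cdk4. The window of 300 bases held CHR elements in 14 mitotic promoters. The cause of these shifts was not tested. Depth is unknown, so values of scarce genes such as Cdc6 and E2f1 carry a counting error that cannot be given.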
